A study of Mus musculus with 3 samples.

Results

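Cadherins, catenins and connexins join neighbouring cells. Classical cadherins bind the same cadherin on the next cell, and the catenins tie their cytoplasmic tails to actin. Connexins assemble into the channels of gap junctions, through which small molecules and electrical current pass between cells. In the heart these proteins sit together at the contacts between cardiomyocytes, and fibroblasts also carry N-cadherin and connexin channels. The genes described here were 9, namely the cadherins Cdh2, Cdh3, Cdh4 and Cdh13, the catenins Ctnnb1 and Jup, and the connexins Gja1, Gjb2 and Gjc1. They were set by name, with earlier results of these data known, and their probes were found by matching the RefSeq transcript that the array gives for each spot. This gave 12 probes on 22 spots, and 7 of the 9 genes were among the 15393 genes of the array that were well above background on at least 1 array.

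The cells were cardiac myofibroblasts, fibroblasts that contract and lay down matrix in the injured heart, from male C57BL/6J mice whose left anterior descending coronary artery had been permanently tied 3 days earlier. The labels give the age of the mice as 8 weeks in one place and as 10 weeks at ligation in another. Cells that attached to plastic overnight and did not carry CD45, a leukocyte surface protein, were taken as myofibroblasts. The 3 states were adherent cells kept on plastic plates, non-adherent cells taken off the plates and held in suspension, and re-adherent cells put back on plates after suspension, and the labels give no genetic change or drug for any state. Each state had 1 one-colour Agilent array made from RNA mixed from several hearts, so no difference below has a biological replicate behind it and no p-value is given. The states followed each other in equal culture periods, so that time in culture and state cannot be told apart, and the study's methods mention that many cells were lost in suspension. In such bulk RNA, fewer cells of a type and less RNA per cell cannot be told apart.

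The arrays were alike in quality. Of the spots that were not controls, 53.9% to 59.9% were well above background, and none was saturated. Markers of several cell types were well above background, while the study reported that nearly all the cells it collected were positive for smooth muscle actin protein. All 12 fibroblast markers were well above background in every state, and their summed level was 2092, 1066 and 1935 times the array's 75th percentile for adherent, non-adherent and re-adherent cells, the order kept for all triplets of values here. Acta2, the smooth muscle actin gene of myofibroblasts, made most of that dip, at 435300, 4690 and 345278 units, while Lum and Dcn were higher in suspension by 3.56 and 1.69, and the median of the 12 genes was -0.63, 0.28 and -0.29 in the 3 comparisons. The summed level of the 12 measured macrophage markers was 215, 1322 and 430, with Ptprc, which encodes CD45, at 355, 2441 and 532 signal units. In suspension 11 of the 12 were over 2-fold higher, beside 17.2% of all genes, while Itgam was lower, at 25376, 15210 and 18947 units. Of the 10 endothelial markers, 10, 10 and 6 were well above background, and 4 of them (Cldn5, Tie1, Robo4 and Emcn) were not on the re-adherent array. The summed level of the 10 was 24.0, 38.3 and 22.3, with Kdr the brightest on both plated arrays at 9446, 7939 and 10320 units. Between the plated arrays 7 of the 10 were over 2-fold lower, beside 4.90% of all genes, while Kdr was at 0.39 and Vwf at -0.08. Cardiomyocyte markers were dim apart from Tnnt2, at 593, 955 and 1646 units, with summed levels of 1.40, 2.18 and 3.52 over 8 measured genes. The summed level of 5 measured epithelial markers stayed between 0.703 and 0.930. The part of these other cells in any result below was not tested.

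Among the 7 measured genes, 4 were over 2-fold lower in suspension (Cdh2, Cdh3, Gja1 and Gjc1), where 14.7% of all genes were, and 1 (Cdh13) was over 2-fold higher, where 17.2% were. The 2 catenins stayed within 2-fold. After the return to plates, 3 genes (Cdh2, Cdh3 and Gjc1) were over 2-fold higher than in suspension, where 15.6% of all genes were, and 0 were over 2-fold lower, where 16.3% were. Between the re-adherent and the adherent array, 0 of the 7 were over 2-fold lower, where 4.90% of all genes were, and 0 were over 2-fold higher, where 4.84% were. The median log2 difference of the 7 genes was -1.21 in suspension, 0.90 on return and -0.11 between both plated states, beside -0.07, 0.08 and 0.06 for all genes. The scaling bears on this background: the share of higher genes among all genes over 2-fold was 53.9% in suspension, 48.9% on return and 49.7% between the plated states, and 41.0%, 35.2% and 15.4% when arrays were scaled to spike-in RNA, 58.6%, 29.8% and 28.6% with no scaling, and 58.6%, 34.1% and 35.4% with the authors' values. Levels are given as signal units, and as log2 of the signal minus the log2 of the array's 75th percentile, which was 651, 697 and 541 units. The error of a difference, given after ±, combines the errors that the scanner software assigned to the spots, and covers technical error only.

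**Figure D1:**
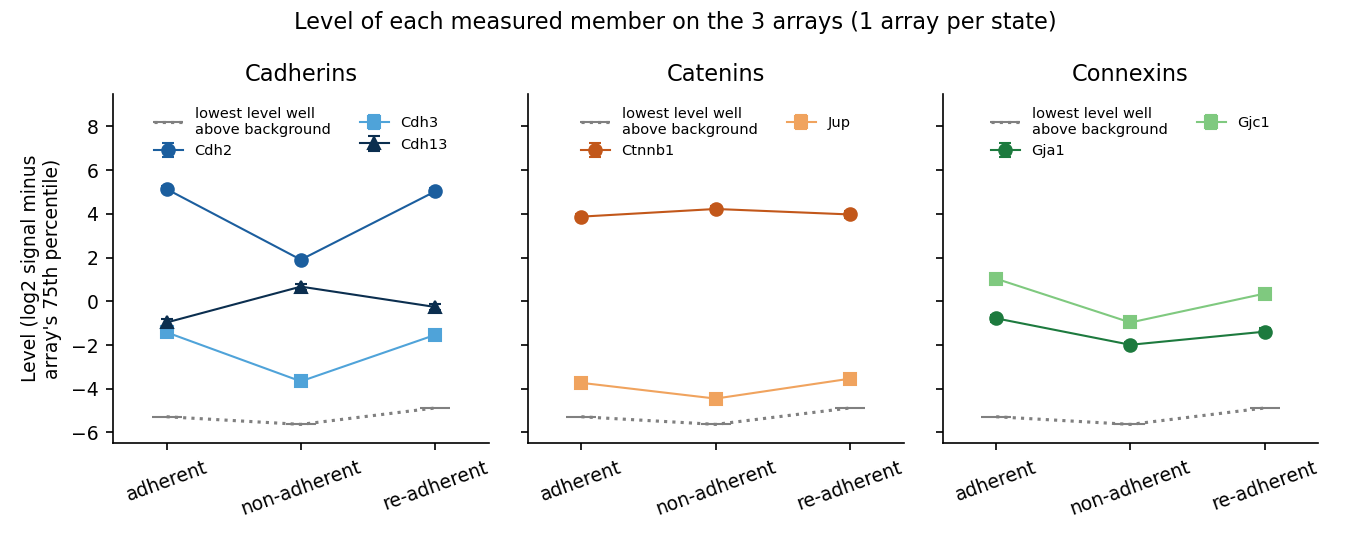
Level (log2 signal minus the array's 75th percentile) of the 7 measured genes in the 3 states, 1 array each. Bars show the software's error of each spot, mostly smaller than the symbols, and the dotted line joins the lowest level well above background on each array. Values are to be compared within a gene, not between genes: Cdh2 and Cdh3 dip on the non-adherent array and return, Cdh13 peaks there, and Gja1 and Gjc1 return part of the way.

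Cdh2 encodes N-cadherin, the classical cadherin of fibroblasts and cardiomyocytes. Its probe read 22759 units in adherent, 2595 in non-adherent and 17555 in re-adherent cells. The signal was thus high on both plated arrays and low in suspension. On the normalised log2 scale the levels were 5.13, 1.90 and 5.02. The difference was -3.23 ± 0.20 in suspension, which left 10.7% of the adherent level, and 3.12 ± 0.20 on return. Only 2.0% of all genes fell further between the adherent and the non-adherent array. Between the plated states the difference was -0.11 ± 0.20, within its technical error, with the re-adherent level at 92.7% of the adherent one. A second probe of Cdh2 read 16291, 2010 and 13486 units, with differences of -3.12, 3.11 and -0.01, so both probes of the gene gave the same course.

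Cdh3 encodes P-cadherin, a classical cadherin best known from placenta, skin and other epithelia. It read 243, 55.0 and 187 units, a dim gene that was nevertheless well above background on all 3 arrays. The difference was -2.24 ± 0.22 in suspension, which left 21.2% of the adherent level, and 2.13 ± 0.22 on return. After the return it stood at 92.4% of its first level (-0.11 ± 0.21), so Cdh3 ended as near to its start as Cdh2. Because Cdh3 was dim, its size depended on the background correction: with the normexp correction the differences were -1.41 and 1.38. The median of the 5 measured epithelial markers moved little across the states, at a level of -2.63, -2.70 and -2.24 on the log2 scale. Single genes moved more. Of the 5, 1 was over 2-fold lower in suspension, beside 14.7% of all genes, and 1 higher on return, beside 15.6%. Both times this was Krt7 (-1.37 ± 0.24 and 1.08 ± 0.25), and with the authors' values 0 were over 2-fold higher on return. The 10 epicardial and mesothelial markers moved unevenly. Their summed level was 25.8, 9.55 and 25.5 times the 75th percentile, with Aldh1a2 the brightest at 10618, 4194 and 5238 units. In suspension 4 were over 2-fold lower, beside 14.7% of all genes, and on return 7 were over 2-fold higher, beside 15.6%. Among them were Tbx18 (-3.74 and 3.37), Krt19 (-2.27 and 3.28) and Krt18 (-1.55 and 3.17). In suspension Upk3b was at -0.08 and Msln at 0.83. Between the plated arrays the median of the 10 was 0.99, where Cdh3 was at -0.11. The part of epithelial, epicardial and mesothelial cells in the result was not tested.

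Cdh13 encodes T-cadherin, an unusual cadherin that is held in the membrane by a lipid anchor, has no tail for catenins and is found on endothelial and smooth muscle cells. It read 333, 1105 and 454 units and was the only measured cadherin of the 3 that was highest in suspension. The difference was 1.63 ± 0.20 in suspension, 310% of the adherent level. On return it was -0.92 ± 0.20, short of 2-fold, and the re-adherent level remained at 164% of the adherent one (0.71 ± 0.21). With the values the authors deposited, with no scaling and with scaling to spike-in RNA, the fall on return passed 2-fold, down to -1.28. Endothelial and macrophage markers were also higher in suspension, with median differences of 1.73 and 2.69, and their medians on return were -3.43 and -1.60. On the re-adherent against the adherent array the endothelial median was -1.99 and the macrophage median 0.88, while Cdh13 was at 0.71.

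Cdh4 encodes R-cadherin, known from retina and brain. Its 3 probes read between 3.67 and 14.2 units, none of them well above background in any state, so Cdh4 has no level here.

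The 2 member catenins, Ctnnb1 and Jup, differed less than Cdh2 and Cdh3 in suspension and on return. Other catenins, named after their values were seen, went both ways in suspension. Ctnnd1 differed by -1.08 ± 0.20, Ctnna1 by -0.78 ± 0.20 and Ctnnal1 by 0.72 ± 0.20. Ctnnb1 encodes β-catenin, which links classical cadherins to α-catenin and also carries Wnt signals to the nucleus. Its probe lay on 2 spots per array, which read 9143 and 9963 units in adherent, 12526 and 13434 in non-adherent and 8344 and 8665 in re-adherent cells. Both non-adherent spots were above all others. After scaling, the difference was 0.34 ± 0.20 in suspension and -0.25 ± 0.20 on return, with errors over repeated spots of 0.08 and 0.06. The re-adherent and adherent arrays differed by 0.10 ± 0.20, within the technical error, and the sign of that difference turned under 4 of 9 alternative settings. While Cdh2 stood at 10.7% of its adherent level, Ctnnb1 was thus not lower in suspension.

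Jup encodes plakoglobin, or γ-catenin, the relative of β-catenin that sits in both adherens junctions and desmosomes. It read 49.0, 32.0 and 46.5 units. The non-adherent array was the lowest, with a difference of -0.71 ± 0.29 in suspension and 0.90 ± 0.30 on return, neither past 2-fold. Around its 1 spot, the local median of the difference on return was 0.35 above the array's. Between the plated arrays Jup differed by 0.19 ± 0.28, and the sign of that difference turned under 2 of 9 settings.

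**Figure D2:**
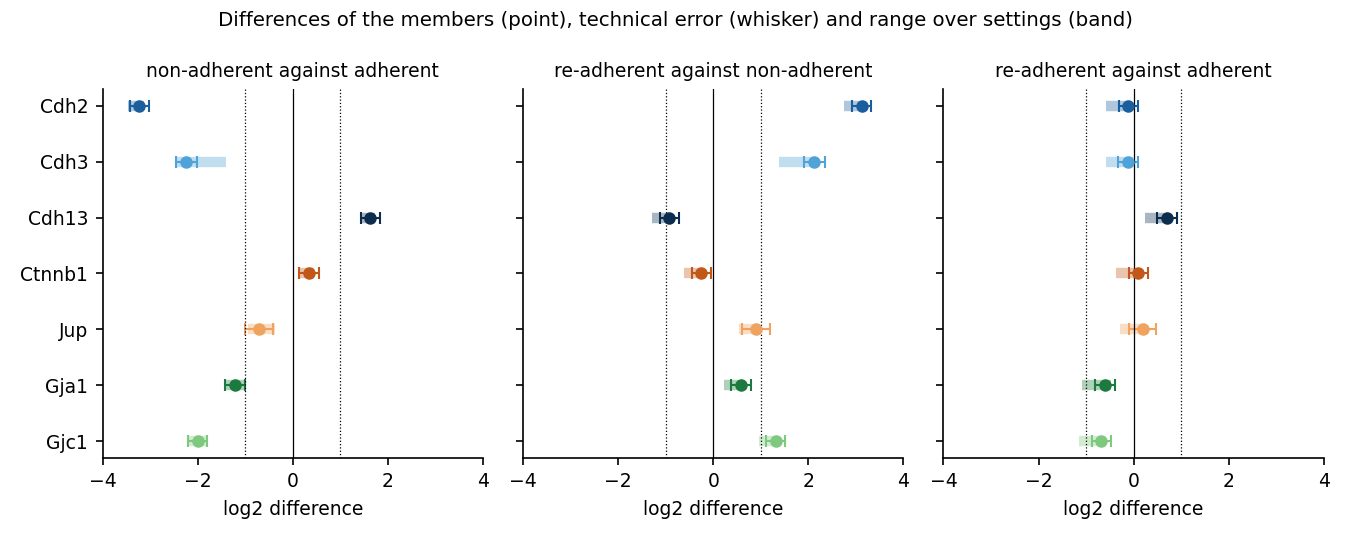
log2 difference of each measured gene in the 3 pairs of arrays (points), with the software's technical error (whiskers) and the lowest and highest value over the alternative settings and the setting used (bands). Dotted lines mark 2-fold. The 2 catenins lie inside the lines in all pairs, Cdh2 and Cdh3 lie outside them in suspension and on return and near 0 between the plated states, and Cdh3 has the widest band in suspension, from -2.47 to -1.41.

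Gja1 encodes Cx43, the main connexin of working ventricular muscle and of cardiac fibroblasts. Its probe was printed 10 times on each array. The lowest, median and highest spots were 357, 381 and 396 units in adherent cells, 162, 179 and 189 in non-adherent cells (8 spots, since 2 were marked as outliers by the software), and 178, 209 and 220 in re-adherent cells. After scaling, the spots of the arrays did not overlap. The lowest adherent spot was at -0.87 on the log2 scale and the highest re-adherent spot at -1.30, while the lowest re-adherent spot was at -1.60 and the highest non-adherent spot at -1.88. The difference was -1.21 ± 0.21 in suspension, and its error over the repeated spots was 0.04. On return it was 0.59 ± 0.21, within 2-fold, with an error over spots of 0.05. The return rested on the scaling, at 0.34 with spike-in scaling, 0.32 with the authors' values and 0.23 with no scaling, and in signal units the non-adherent and re-adherent spots overlapped. Gja1 thus stood at 43.4% of its adherent level in suspension and at 65.4% after the return (-0.61 ± 0.21). Repeated spots measure the same RNA on the same array, so their close agreement says nothing about other cultures.

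**Figure D3:**
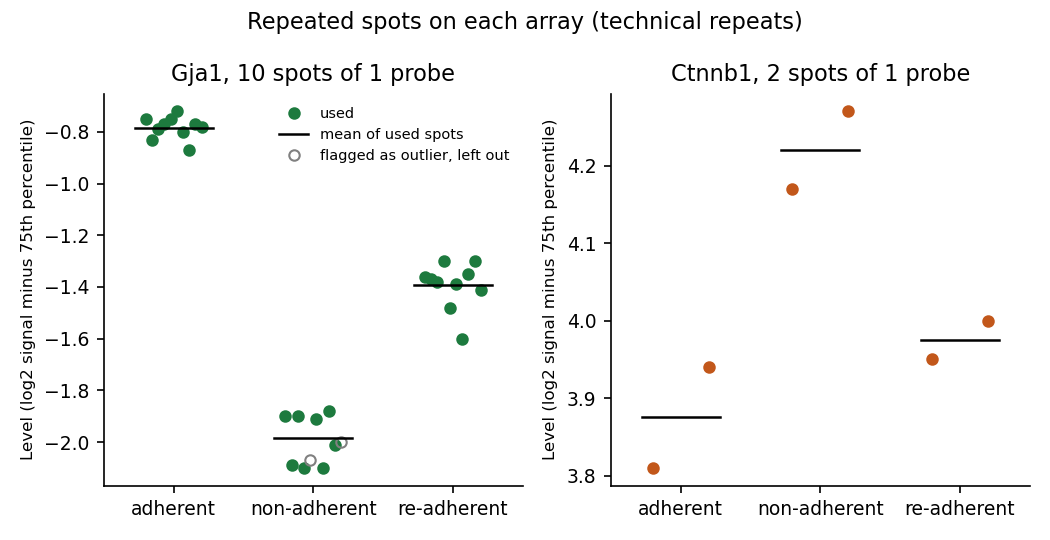
Level (log2 signal minus the array's 75th percentile) of every spot of the Gja1 probe (10 spots) and the Ctnnb1 probe (2 spots) on each array. Filled points were used, open points were marked as outliers by the software, and lines are means of the spots used. On this scale, though not in signal units, the Gja1 spots form 3 separate bands with means of -0.78, -1.99 and -1.39, and both Ctnnb1 spots are highest on the non-adherent array.

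Gjc1 encodes Cx45, a connexin of the conduction system and of vascular smooth muscle. It read 1327, 355 and 690 units, high on the adherent array, low in suspension and between them after the return. The difference was -2.00 ± 0.20 in suspension, which left 25.0% of the adherent level. On return it was 1.32 ± 0.20, and the re-adherent level was 62.5% of the adherent one (-0.68 ± 0.20). Gjc1 was read by 1 spot, and on return the local median of the difference around that spot was 0.39 above the array's. Mural cell markers, which include vascular smooth muscle, had summed levels of 4.14, 4.23 and 2.25 times the 75th percentile over 8 genes, with Notch3 the brightest at 1418, 2327 and 680 units. The list was split in suspension, where 14.7% of all genes were over 2-fold lower and 17.2% higher. Of the 8, 3 were over 2-fold lower, Cspg4 (-2.06), Des (-2.17) and Myh11 (-5.19, not well above background there). Another 2 were over 2-fold higher, Kcnj8 (4.21) and Abcc9 (2.49), both well above background in suspension alone. Between the plated arrays 4 of the 8 were over 2-fold lower and 0 higher, beside 4.90% and 4.84% of all genes. Of these, 2 were well above background on both arrays, Cspg4 (-1.43) and Myh11 (-2.40), while Des ended at 0.43. The part of mural cells in the course of Gjc1 was not tested. Both connexins therefore ended below their adherent level by more than their technical error, at 65.4% and 62.5%, whereas Cdh2 and Cdh3 ended within theirs. Whether the cadherins ended within their error depended on the scaling. Cdh2 ended beyond its error of 0.20 with the authors' values (-0.28), quantile normalization (-0.31), no scaling (-0.37) and spike-in scaling (-0.59). Cdh3 ended beyond its 0.21 with the authors' values (-0.29), no scaling (-0.38) and spike-in scaling (-0.59). Apart from quantile normalization, these scalings shift all genes on an array alike and leave the gap between the connexins and the cadherins unchanged. With quantile normalization Gja1 was at -0.59, Gjc1 at -0.73 and Cdh3 at -0.08. Of all genes, 10.2% lay below Gja1 and 8.9% below Gjc1 in the comparison of the plated arrays, so a shortfall of this size was not unusual for a gene on these arrays. Whether the connexins and the cadherins differ in their return could not be tested with 1 array per state. With spike-in scaling, both connexins passed 2-fold below the adherent array (-1.09 and -1.15), and with no scaling the return of Gjc1 fell to 0.96.

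Gjb2 encodes Cx26, a connexin of epithelia and the inner ear. Its 1 probe read between 9.32 and 11.5 units and was never well above background, so Gjb2 has no level here.

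**Figure D4:**
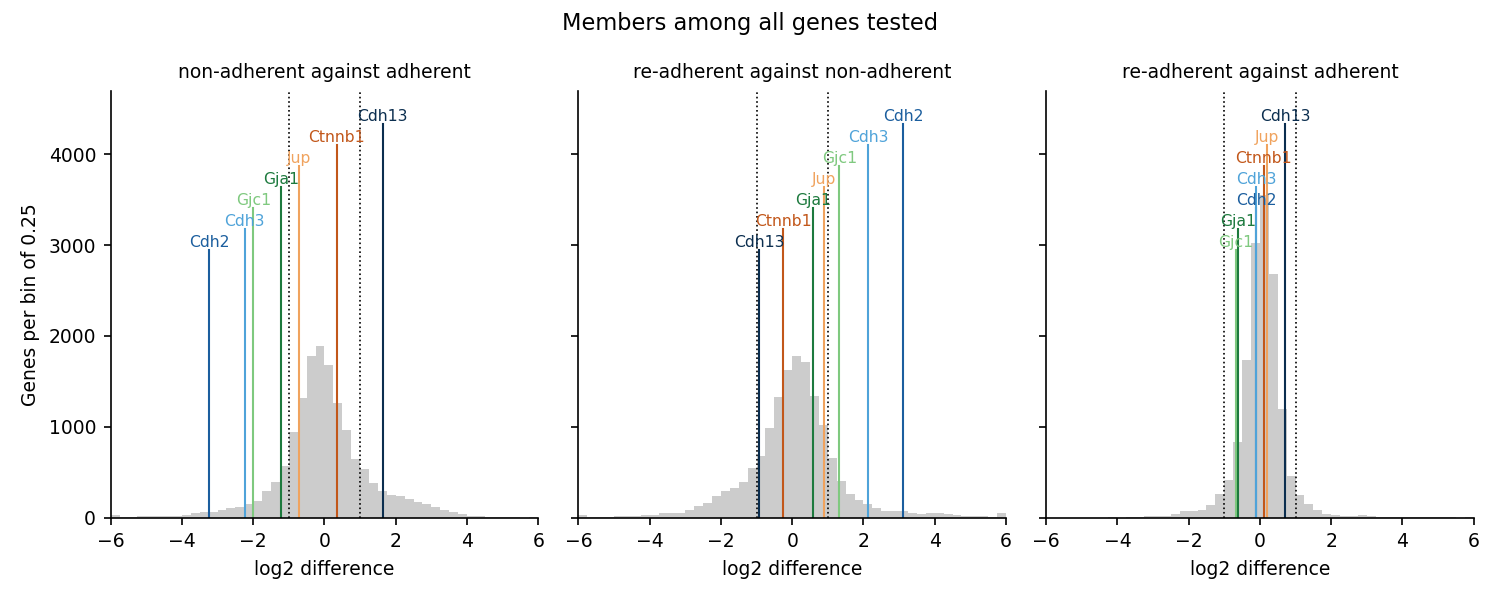
Distribution of the log2 differences of the 15393 genes tested in each pair of arrays (grey bars, genes per bin of 0.25, with genes beyond the axis in the end bins), with the 7 measured genes marked by labelled lines. Dotted lines mark 2-fold. Cdh2 lies far out in suspension and on return, at -3.23 and 3.12, and all 7 genes lie inside the lines between the plated arrays, where the distribution is narrower.

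Promoter sequences from RefSeq (GRCm38.p6), from 250 bases before to 50 bases after the annotated start, were held for 4 of the 9 genes. Those of Gja1 and of the downstream of 2 annotated starts of Ctnnb1 are shown, as a connexin gene that fell in suspension and a catenin gene that did not, with capitals marking a match to TGANTCA, the letters bound by AP-1 factors, in Gja1 and to TATAAA, the TATA box, in Ctnnb1. The Gja1 window is chr10:56377050-56377349, plus strand, and the Ctnnb1 window is chr9:120933328-120933627, plus strand.
Gja1: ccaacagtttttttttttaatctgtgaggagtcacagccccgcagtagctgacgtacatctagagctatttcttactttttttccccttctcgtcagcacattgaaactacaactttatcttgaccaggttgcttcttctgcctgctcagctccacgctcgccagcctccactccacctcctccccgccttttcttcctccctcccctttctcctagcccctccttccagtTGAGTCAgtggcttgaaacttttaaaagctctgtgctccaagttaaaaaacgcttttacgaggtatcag
Ctnnb1: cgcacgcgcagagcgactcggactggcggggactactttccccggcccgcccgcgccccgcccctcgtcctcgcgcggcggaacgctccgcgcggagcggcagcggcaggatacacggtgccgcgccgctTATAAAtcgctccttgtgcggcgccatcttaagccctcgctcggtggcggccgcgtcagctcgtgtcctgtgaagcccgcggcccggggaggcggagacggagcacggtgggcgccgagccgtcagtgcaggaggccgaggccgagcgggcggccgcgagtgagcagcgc
The match in Gja1 begins 19 bases before the start, and a match to CANNTG, the E-box bound by Snail, ZEB and Twist factors, begins 23 bases before it and overlaps the first bases in capitals. The match in Ctnnb1 begins 120 bases before the start. Over 32851 promoter windows of the same length, searched on both strands, TGANTCA was in 7.81%, CANNTG in 72.3% and TATAAA in 13.6%. GGAATG, bound by TEAD factors, was in 14.7% of all windows and in none of those of the 4 genes. A match is a description of the letters and not a sign of binding.

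The wider junction genes were counted from lists. Of 19 other cadherins, 8 were measured, with a median of -0.58 in suspension. There 2 were over 2-fold lower and 1 higher, beside 14.7% and 17.2% of all genes. On return 2 were higher and 2 lower, beside 15.6% and 16.3% of all genes. Of these cadherins, 1 and 1 were well above background on both arrays. Over the settings 0 to 2 were higher and 1 to 2 lower on return. Cdh11, a cadherin of mesenchymal cells, read 823, 310 and 508 units, with differences of -1.51 ± 0.20 and 1.07 ± 0.21, the same directions as Cdh2 and Cdh3. Cdh5, the cadherin of endothelial cells, went the other way. It read 289, 2381 and 26.6 units, with differences of 2.94 ± 0.21 in suspension, -6.12 ± 0.35 on return and -3.18 ± 0.35 between the plated arrays. Its course ran with the endothelial markers, whose medians were 1.73, -3.43 and -1.99, and the first and second differences of Cdh13 (1.63 and -0.92) had the same signs, while the third (0.71) did not.

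The list of other catenins and adherens junction partners held 19 genes, and 18 were measured. In suspension 10 of them were over 2-fold lower and 1 higher, beside 14.7% and 17.2% of all genes. On return 10 were over 2-fold higher and 1 lower, beside 15.6% and 16.3% of all genes. Counting only genes well above background on both arrays of a pair, these numbers were 7 and 0 in suspension and 7 and 0 on return. The medians were -1.11 and 1.17. Vcl encodes vinculin, which ties both cadherin junctions and focal adhesions to actin. It read 11105, 1262 and 7170 units, with differences of -3.24 ± 0.20 and 2.87 ± 0.20. Nectins are immunoglobulin-like adhesion molecules that form adherens junctions beside the cadherins. Nectin3 differed by -3.03 ± 0.21 and 3.19 ± 0.21, Nectin2 by -2.09 ± 0.20 and 2.15 ± 0.20, and Nectin1 by -1.62 ± 0.20 and 1.55 ± 0.20, so these 3 nectins took the course of Cdh2. Nectin4, named after its values were seen, was well above background in suspension alone, at 4.30, 94.1 and 12.0 units. Ajuba, a LIM protein recruited to α-catenin, differed by -2.74 ± 0.20 and 2.89 ± 0.20. Arvcf, a relative of p120-catenin that binds the cadherin tail, stayed within 2-fold in suspension at -0.69 ± 0.22 and was 1.31 ± 0.22 higher on return.

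Among the desmosome genes, 9 of 14 were measured, with medians of -0.70 in suspension and 0.88 on return. In suspension 3 were over 2-fold lower and 1 higher, beside 14.7% and 17.2% of all genes. On return 4 were higher and 0 lower, beside 15.6% and 16.3% of all genes. Counting genes well above background on both arrays, these were 2, 0, 4 and 0. Over the settings, 0 to 2 were lower on return. Pkp2 encodes plakophilin-2, which binds plakoglobin and desmoplakin at the intercalated disc. It read 966, 87.8 and 1427 units, with differences of -3.56 ± 0.21 and 4.39 ± 0.21, far larger than those of Jup. Pkp1, the plakophilin of skin, ended above its adherent level: it read 122, 28.9 and 408 units, and the re-adherent array was 2.01 ± 0.21 higher than the adherent one. Ppl, which encodes periplakin, and Perp, a desmosomal membrane protein, also ended above their adherent levels, by 2.08 ± 0.22 and 1.01 ± 0.21. Between the plated arrays 3 of the 9 were thus over 2-fold higher and 1 lower, beside 4.84% and 4.90% of all genes, with a median of 0.31. The lower gene, Dsg1a, was well above background on the adherent array alone. With the authors' values or spike-in scaling 2 were higher. The epicardial and mesothelial markers, among them keratins, had a median of -0.89 in suspension, 2.24 on return and 0.99 between the plated arrays over 10 genes. Of the 10, 5 ended over 2-fold above their adherent level, beside 4.84% of all genes. This was 4 with the authors' values and 3 with spike-in scaling.

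Of 20 other connexins and pannexins, 10 were measured. In suspension 3 were over 2-fold lower and 2 higher, and on return 4 were higher and 3 lower. With both arrays well above background these were 3, 1, 4 and 1. The counts depended on the setting: 2 were higher on return with the authors' values, quantile normalization, no scaling, spike-in scaling or normexp, and normexp gave 0 higher in suspension and 0 lower on return. Over all genes, 14.7% were lower and 17.2% higher in suspension, and 15.6% higher and 16.3% lower on return. Gja4, an arterial endothelial connexin, read 168, 430 and 119 units and was 1.26 ± 0.21 higher in suspension. Gja10, at 47.2, 22.7 and 35.5 units, was well above background on all 3 arrays but near it, with differences of -1.15 ± 0.34 and 1.01 ± 0.37.

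**Figure D5:**
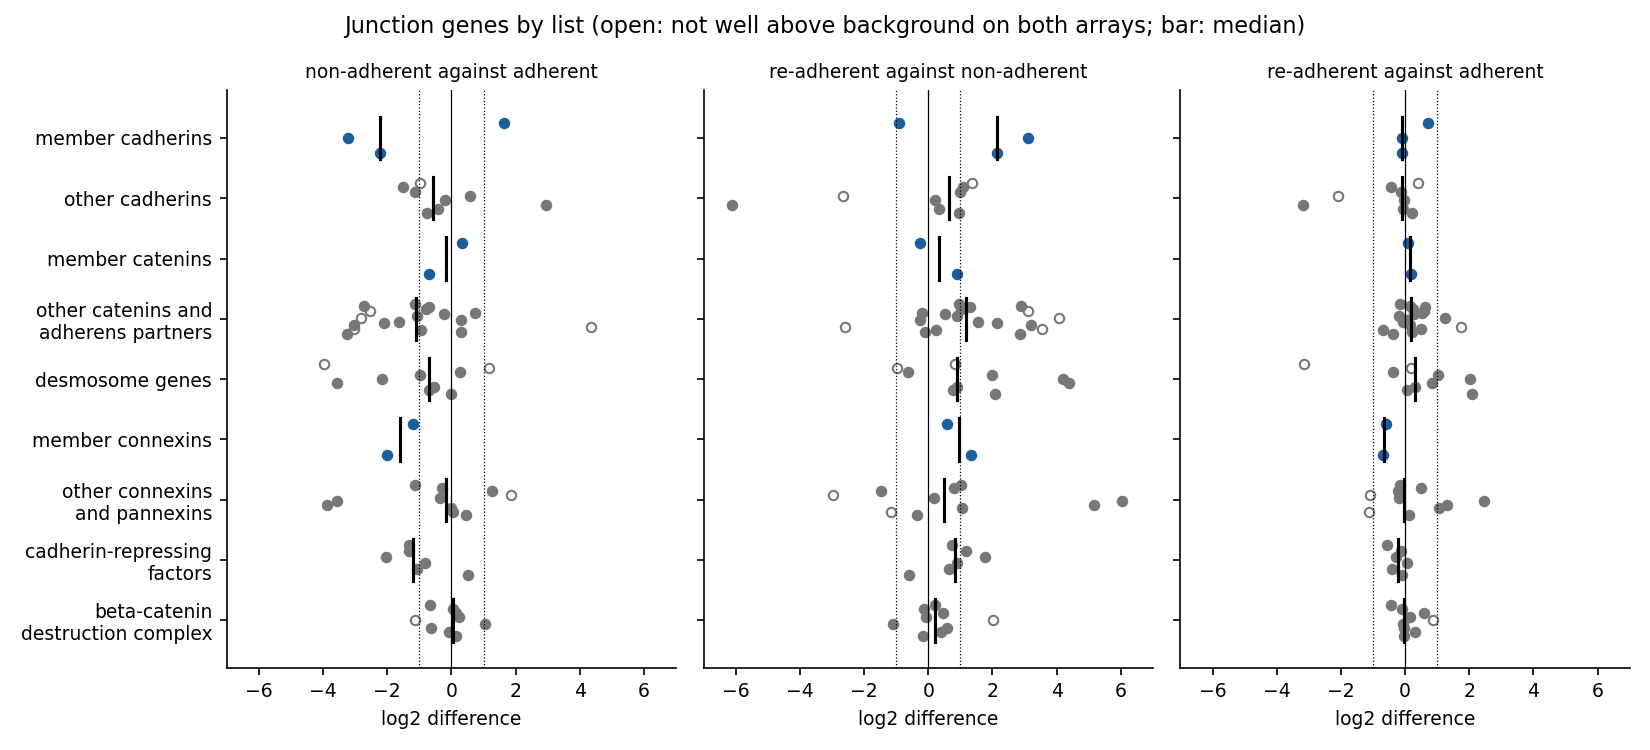
log2 differences of the measured genes of each junction list in the 3 pairs of arrays, with the genes described above in blue and the other lists in grey. Open points were dim on at least 1 array of the pair, black bars are medians, and dotted lines mark 2-fold. Adherens junction partners lie mostly left of 0 in suspension and right of 0 on return, with medians of -1.11 and 1.17. The destruction complex has medians of 0.04 and 0.22, with 1 gene past 2-fold in each direction in both of these pairs.

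Transcription factors known to repress epithelial cadherin made a further list. Of 7 listed, 6 were measured, with a median of -1.20 in suspension. There 4 were over 2-fold lower and 0 higher, beside 14.7% and 17.2% of all genes. With the authors' values or no scaling 3 were lower, and with spike-in scaling 5. Twist1 read 976, 251 and 664 units (-2.05 ± 0.20), Snai1 7878, 3396 and 4438 (-1.31 ± 0.20), Snai2 3530, 1521 and 2688 (-1.31 ± 0.20), and Zeb1 3496, 1765 and 2170 (-1.08 ± 0.20). Zeb2, at 4043, 6190 and 3152 units, was higher in suspension, within 2-fold (0.52 ± 0.20). On return, 2 of the 6 were over 2-fold higher, beside 15.6% of all genes, Twist1 by 1.76 ± 0.20 and Snai2 by 1.19 ± 0.20. With the authors' values, no scaling or spike-in scaling this was 1 of the 6. The 9 genes of the complex that marks β-catenin for destruction were all measured, and their median was 0.04 in suspension and 0.22 on return. Among them Btrc, which encodes the ubiquitin ligase subunit that recognises β-catenin, differed by 1.03 ± 0.21 in suspension and -1.09 ± 0.21 on return. With the mean of each gene's probes, 0 genes of the complex were over 2-fold higher in suspension and 0 lower on return, and with spike-in scaling or normexp 0 were higher in suspension.

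The genes most like a member were found as the smallest distance over both log2 differences, in suspension and on return, among 13475 genes well above background on all 3 arrays. For Cdh2 these were Palld, which encodes the actin-binding protein palladin, at a distance of 0.012, Prkd1, which encodes a protein kinase, at 0.054, and Stc2, which encodes a secreted glycoprotein, at 0.064. For Cdh3 they were Fam83d at 0.025, Epb41l3 at 0.037 and Hoxb2 at 0.064. For Gjc1 they were Stard13 at 0.042, Runx1t1 at 0.050 and Fancb at 0.078. Within a distance of 0.2 there were 17, 40 and 20 genes, so these neighbours are a few among many, and with 3 arrays the distances rest on 2 differences each.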

How the data were processed

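Total RNA of 3 states of cultured cardiac myofibroblasts was labelled with Cy3 and measured on Agilent SurePrint G3 mouse arrays, 1 per state. The files deposited by the authors hold spot intensity from Agilent Feature Extraction 10.10.1.1, background-subtracted on a linear scale, with an error and flags for each spot. The authors' series table held intensity values equal to that signal times 1 constant per array (1.52, 1.52 and 1.62), and was kept as an alternative.

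The 59305 non-control spots per array were used, without those marked as outliers (154, 180 and 175). The log2 processed signal was reduced by the array's 75th percentile, and spots of a probe were averaged. RefSeq names without version gave symbols to 27235 of 55681 probes (21465 of 37881 transcript names, GRCm38.p6). A gene was read by its brightest probe among those well above background on at least 1 array. With 1 array per state, a gene was called when over 2-fold different, with no p-value, so the number of arrays sets the precision. All arrays shared 1 slide and scan. Local medians in windows of 11 by 11 spots around the members differed from the array's by -0.29 to 0.43 on the log2 scale. Members and lists were chosen with earlier results of these data known. Of other lists, up to the 6 genes with the largest difference over 2-fold, well above background on both arrays, were named. Some genes of the connexin list are counted there and not reported here by name. For likeness, the 3 nearest genes were named for the 3 members with the largest difference in suspension. Alternatives were other scalings, normexp (offset 50, limma 3.58.1 in R 4.3.3), a floor, other probe rules and 4-fold. Other steps used Python 3.11.15, numpy 2.4.6 and pandas 2.3.3.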

Additional observations from a re-analysis of the deposited data

Results flagged for a closer look

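Among the 96 ERCC control probes on the arrays, for synthetic RNAs that no label mentions as added, 2 were well above background on all 28 of their spots on every array. ERCC-00148 had a median signal of 101 units on the adherent, 95.8 on the non-adherent and 119 on the re-adherent array. ERCC-00170 had 95.9, 70.4 and 75.9 units.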

How the results depend on the processing

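Of the 21 differences of the 7 measured members, 19 kept their sign and 17 kept their side of 2-fold under all 9 alternatives with a value for each member. The sign turned for Ctnnb1 and Jup between the plated arrays, to -0.38 and -0.29 with spike-in scaling (6 E1A probes), and the side of 2-fold changed for Cdh13 and Gjc1 on return and for Gja1 and Gjc1 between the plated arrays, with the values given for these genes above. At 4-fold, 0 members were higher in suspension. With the authors' values, no scaling and spike-in scaling, 1 member was over 2-fold lower on return, and with spike-in scaling 2 ended over 2-fold below their adherent level. The median of the members in suspension was -1.43 with spike-in scaling. On return it was 0.63 with the authors' values, 0.54 with no scaling, 0.65 with spike-in scaling and 0.55 with normexp, and between the plated arrays -0.37 with no scaling and -0.59 with spike-in scaling. For normexp the cause was not tested. The authors' values, no scaling and spike-in scaling change each array by 1 constant, so they shift members and other genes alike. They moved the median of all genes, in suspension, on return and between the plated arrays, by 0.10, -0.27 and -0.18 (authors' values), 0.10, -0.36 and -0.27 (no scaling) and -0.22, -0.25 and -0.48 (spike-in). Normexp ran on the median signal in place of the planned mean signal. Leaving out bright patches removed 0 spots. No paired analysis was possible because each state had 1 array, and for the same reason no replicate could be left out. Dim members (Jup, Cdh3) are the least precise, with errors of 0.21 to 0.30.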
